A study of Mus musculus with 11 samples.

Results

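The 47 genes described here carry out or support DNA replication: they load the replicative helicase onto origins, start it, copy the strands, supply nucleotides and restore chromatin behind the fork. They are listed by name and no measured value enters the rule, but the list was chosen with earlier results of these data known. All 47 were found in the count table of 57180 Ensembl identifiers by their mouse symbol. All 47 passed the filter on low counts, as did 19948 genes in all. The lowest count of any of the 47 in any library was 34 (Orc1). The data are 11 bulk RNA-seq libraries of alveolar macrophages, the resident phagocytes of the air spaces, sorted by flow cytometry from homogenised lungs of wild-type C57BL/6 mouse pups at postnatal day 7. The exposed pups had been kept at 95% oxygen (hyperoxia) from postnatal day 1 to 5, and the other pups in normoxia, and the study's title asks about sex in the response. Libraries are named by N or H for the oxygen group, M or F for the sex and the replicate number of the labels: NM1 to NM3, NF1 to NF3, HM2 and HM3, and HF1 to HF3. All groups share the strain, the age and the sort. The labels do not say whether a replicate is 1 animal or a pool, so the spread behind every p-value is that between libraries and may be technical.

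A cell copies its genome once per cycle. In G1 the origin recognition complex, with CDC6 and CDT1, loads the ring-shaped MCM helicase onto origins. At the start of S phase, cyclin E with CDK2 and the kinase CDC7 with its partner DBF4 turn that ring, by adding CDC45 and the GINS complex, into a moving helicase. Polymerase alpha with primase then lays primers, polymerases epsilon and delta extend them, and the sliding clamp PCNA, put in place by replication factor C, holds the polymerase on the template. Many of these genes are known targets of E2F transcription factors. Alveolar macrophages are seeded around birth and are known to maintain their numbers largely by dividing in place.

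All 16 alveolar macrophage markers (Siglecf, Itgax, Marco, Fabp4 and others) had over 3 counts in every library. So had all 10 epithelial and all 8 endothelial markers, so passing that floor does not by itself set the identity of the sorted cells. Total counts ran from 18087948 (NM3) to 32579468 (NF1), so that 3 counts, the floor used here, were worth 0.0880 to 0.160 CPM (counts relative to the TMM-scaled library size). Summed over each list, the alveolar macrophage markers had 6124 to 9617 CPM, the epithelial 46.1 to 147 CPM and the endothelial 99.0 to 191 CPM. Libraries NM3, NF3, HF2 and HF3 stood apart in the number of genes with at least 1 count, 33158 to 35530 against 26856 to 30173 in the other 7. NM3 also stood apart in level: over the 8270 genes with a mean of at least 10 CPM, its median lay 0.36 below the mean of the 6 normoxia libraries on the log2 scale, and the other 10 libraries lay between -0.15 and 0.20. The main counts are therefore also given without NM3 or without those 4 libraries.

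Nearly all replication genes were higher after hyperoxia, but few passed the test singly. Over both sexes 46 of 47 had a log2 fold change (hyperoxia minus normoxia) above 0, with a median of 0.45, where 45.9% of all genes tested were above 0 and their median was -0.031. Among the 8270 genes of at least 10 CPM, the range in which most replication genes lie, 53.2% were above 0 and the median was 0.016. Cyclin E1 (Ccne1), the ribonucleotide reductase subunit Rrm2 and the origin recognition subunit Orc1 rose, and none fell, at a Benjamini-Hochberg adjusted p under 0.05 over all genes in the quasi-likelihood test of edgeR. That is 3 of 47, where 0.541% of all genes tested rose. At an unadjusted p under 0.05, 25 of 47 were higher, against 4.79% of all genes tested. In 12 of 47, all 5 hyperoxia libraries stood above all 6 normoxia libraries, a pattern held by 1.76% of all genes tested. In order of their p these were Ccne1, Rrm2, Orc1, Dbf4, Cdc6, Cdc45, Rrm1, Cdc7, Prim2, Mcm7, Lig1 and Mcm5, and no replication gene had all hyperoxia libraries below all normoxia libraries. Without NM3 the count was again 12 (2.16% of all genes), and without NM3, NF3, HF2 and HF3, with 3 hyperoxia and 4 normoxia libraries, it was 18 (5.08%). In bulk RNA, a larger share of cells in S phase and more of these RNAs per cell cannot be told apart.

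**Figure D1:**
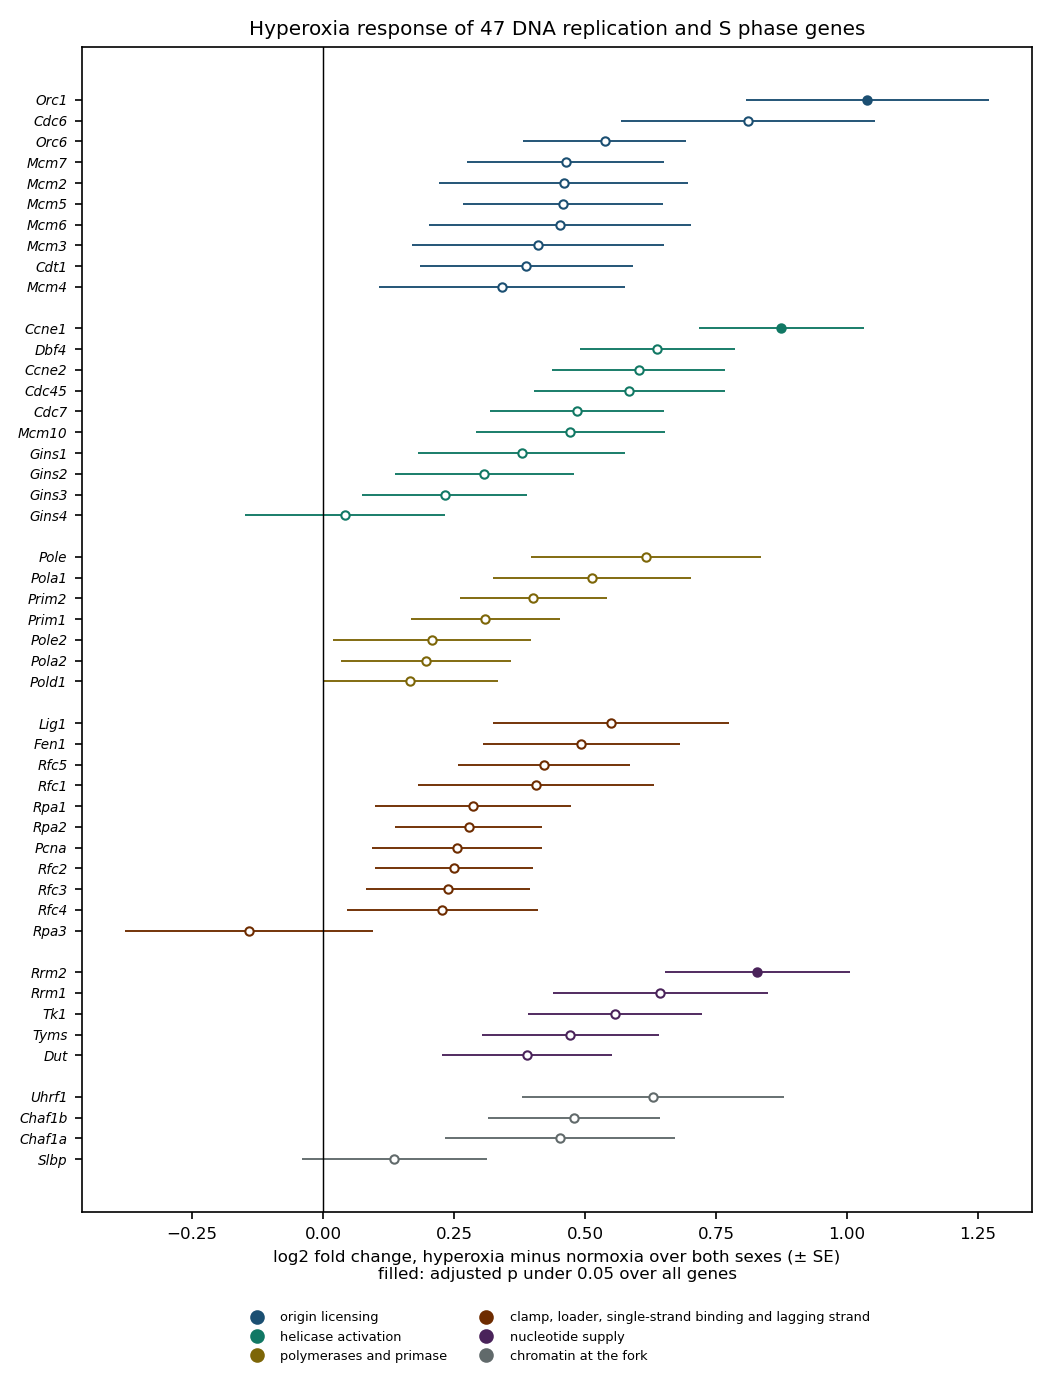
Log2 fold change (x axis, hyperoxia minus normoxia over both sexes) of the 47 replication genes, in 6 role groups; points are edgeR estimates, bars ± 1 SE and filled points an adjusted p under 0.05 over all genes. All but Rpa3 (-0.14) lie right of 0, and the 3 filled points are Orc1 (1.04), Ccne1 (0.87) and Rrm2 (0.83).

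The direction held without the libraries that stood apart, while the calls did not all hold. Without NM3, 46 of 47 were still above 0, their median was 0.32 and that of all genes tested was -0.0071. Ccne1 and Rrm2 rose in that fit, 2 of 47 against 0.645% of the 18758 genes tested, and Orc1 had a log2 fold change of 0.89 (edgeR, adjusted p = 0.0508). Without NM3, NF3, HF2 and HF3, with HF1 alone for the hyperoxia females and its variance taken from the other groups, 44 of 47 were above 0 and the median was 0.30. None then passed the edgeR test, against 0.0543% of the 18408 genes tested, and 18 of 47 were higher at an unadjusted p under 0.05, against 4.31% of all genes tested. Without NM3 alone that count was 23, against 5.79%. With library scaling taken only from genes of at least 10 CPM, a setting added after the data were seen, 8 of 47 rose (Ccne1, Rrm2, Orc1, Dbf4, Rrm1, Cdc45, Fen1 and Pola1) against 0.957% of all genes tested, and the median was 0.43. DESeq2 called 5 of 47 higher (Ccne1, Rrm2, Orc1, Dbf4 and Rrm1) against 1.47% of all genes tested, so none of its calls lay among the polymerase, clamp or chromatin genes.

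The values by library show where the calls come from. Ccne1 (ENSMUSG00000002068), the cyclin that drives CDK2 at the start of S phase, stood at 14.3, 13.5 and 10.2 CPM in NM1 to NM3, 12.9, 13.6 and 9.10 CPM in NF1 to NF3, 23.1 and 23.7 CPM in HM2 and HM3, and 18.1, 23.7 and 23 CPM in HF1 to HF3. Its means were 12.3 ± 2.09 CPM (SD, n = 6) in normoxia and 22.3 ± 2.39 CPM (SD, n = 5) after hyperoxia, a log2 fold change of 0.87 ± 0.16 (SE; edgeR, adjusted p = 0.0139). The lowest hyperoxia library (HF1) was above the highest normoxia library (NM1), and the increase was near equal in males (0.89 ± 0.23) and females (0.86 ± 0.21). Rrm2 (ENSMUSG00000020649), the regulatory subunit of the enzyme that makes deoxyribonucleotides, stood at 78.02, 73 and 47.2 CPM in NM1 to NM3, 80.4, 77.4 and 55.7 CPM in NF1 to NF3, 128.5 and 125 CPM in HM2 and HM3, and 109, 125 and 118 CPM in HF1 to HF3. Its means were 68.6 ± 13.8 CPM (SD, n = 6) in normoxia and 121 ± 7.81 CPM (SD, n = 5) after hyperoxia, a log2 fold change of 0.83 ± 0.18 (SE; edgeR, adjusted p = 0.0392). Every hyperoxia library was above the highest normoxia library (NF1), and NM3 and NF3 were the lowest of their groups. Orc1 (ENSMUSG00000028587), the largest subunit of the origin recognition complex and the one whose amount changes over the cell cycle, stood at 4.16, 3.29 and 1.76 CPM in NM1 to NM3, 1.78, 2.31 and 2.03 CPM in NF1 to NF3, 5.32 and 5.57 CPM in HM2 and HM3, and 4.97, 5.05 and 4.57 CPM in HF1 to HF3. Its means were 2.56 ± 0.970 CPM (SD, n = 6) in normoxia and 5.10 ± 0.380 CPM (SD, n = 5) after hyperoxia, a log2 fold change of 1.04 ± 0.23 (SE; edgeR, adjusted p = 0.0477). The hyperoxia libraries lay close together and the normoxia ones did not: NM1 and NM2 were above all normoxia female libraries, and the hyperoxia minus normoxia difference was 0.83 ± 0.34 in males and 1.25 ± 0.31 in females.

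Dbf4, the partner that activates CDC7, came next by p and did not pass; its values by library are given because it was singled out after they were seen. It stood at 33.8, 33.1 and 24.98 CPM in NM1 to NM3, 33.8, 36.5 and 30.6 CPM in NF1 to NF3, 57.6 and 51.4 CPM in HM2 and HM3, and 40.5, 47.9 and 48.8 CPM in HF1 to HF3, a log2 fold change of 0.64 ± 0.15 (SE; edgeR, adjusted p = 0.0583). All hyperoxia libraries again lay above all normoxia libraries, with the males highest.

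**Figure D2:**
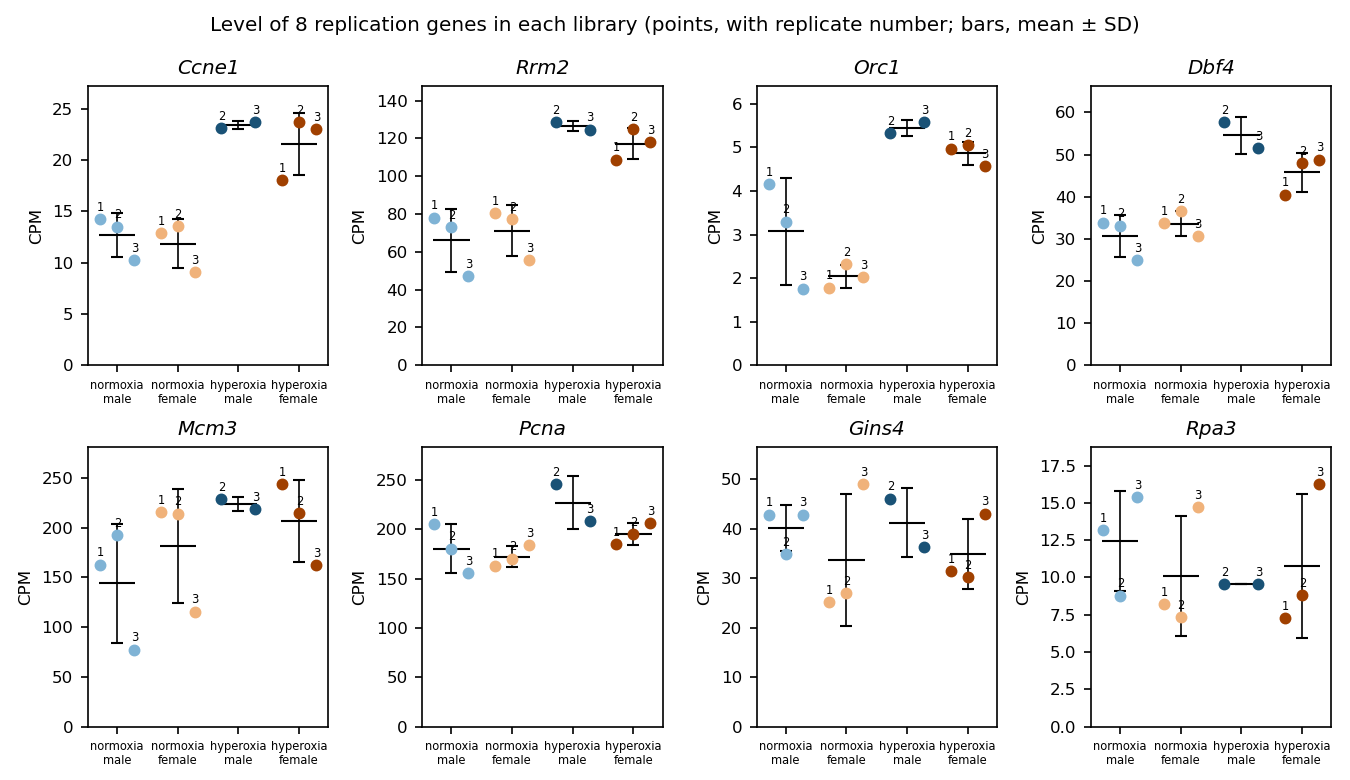
CPM (y axes, starting at 0) of 8 replication genes in each of the 11 libraries by group (x axes); points are libraries with their replicate number, horizontal lines group means and whiskers ± 1 SD. The top row (Ccne1, Rrm2, Orc1, Dbf4) has no overlap between the oxygen groups, while Mcm3, Pcna, Gins4 and Rpa3 overlap, and NM3 and NF3 are the lowest libraries for Mcm3.

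The sequences just upstream of these genes were examined for the letters bound by E2F, since the replication genes are known for them and since most members lay on the same side of 0. The RefSeq promoter table of build GRCm38.p6 holds 39 of the 47 genes, with 45 windows of 300 bases from 250 before to 50 after the start; the deposited counts were made on mm39, so the coordinates below belong to GRCm38.p6 alone. E2F letters were searched as TTTCCCGC, TTTCGCGC, TTTGCCGC and TTTGGCGC on both strands, and NF-Y letters as CCAAT on both strands. E2F letters stood in 14 of the 45 windows (31.1%) against 2.26% of all 32851 promoter windows, and CCAAT in 25 (55.6%) against 37.4%. Printed below are the 250 bases before the start, 5′ to 3′ on the strand of the gene, for the 3 genes that rose and for 3 with E2F letters in that stretch: Cdc6 and Mcm5, whose oxygen groups did not overlap, and Mcm6, which has the most matches. Capitals mark E2F letters and CCAAT on either strand. The stretches lie at chr4:108579204-108579453 (plus strand), chr7:38107491-38107740 (minus strand), chr12:24708004-24708253 (plus strand), chr11:98907901-98908150 (plus strand), chr8:75109259-75109508 (plus strand) and chr1:128359706-128359955 (minus strand).
Orc1: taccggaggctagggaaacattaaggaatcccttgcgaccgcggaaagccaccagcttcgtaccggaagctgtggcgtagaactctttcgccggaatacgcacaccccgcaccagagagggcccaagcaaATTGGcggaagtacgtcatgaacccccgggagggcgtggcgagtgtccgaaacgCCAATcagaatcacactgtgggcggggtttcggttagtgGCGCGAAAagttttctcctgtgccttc
Ccne1: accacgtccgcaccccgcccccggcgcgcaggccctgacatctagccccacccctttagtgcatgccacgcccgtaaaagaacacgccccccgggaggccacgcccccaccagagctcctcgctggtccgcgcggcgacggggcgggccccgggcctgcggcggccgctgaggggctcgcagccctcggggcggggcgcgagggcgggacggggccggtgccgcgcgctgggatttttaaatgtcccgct
Rrm2: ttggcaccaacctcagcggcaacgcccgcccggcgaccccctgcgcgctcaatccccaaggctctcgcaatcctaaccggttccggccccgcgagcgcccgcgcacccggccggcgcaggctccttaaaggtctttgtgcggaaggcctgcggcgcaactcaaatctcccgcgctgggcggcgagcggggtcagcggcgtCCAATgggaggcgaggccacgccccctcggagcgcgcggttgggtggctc
Cdc6: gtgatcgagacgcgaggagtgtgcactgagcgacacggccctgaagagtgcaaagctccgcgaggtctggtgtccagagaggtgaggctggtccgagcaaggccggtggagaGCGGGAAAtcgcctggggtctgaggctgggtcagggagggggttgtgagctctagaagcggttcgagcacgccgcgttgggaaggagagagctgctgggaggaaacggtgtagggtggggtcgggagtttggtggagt
Mcm5: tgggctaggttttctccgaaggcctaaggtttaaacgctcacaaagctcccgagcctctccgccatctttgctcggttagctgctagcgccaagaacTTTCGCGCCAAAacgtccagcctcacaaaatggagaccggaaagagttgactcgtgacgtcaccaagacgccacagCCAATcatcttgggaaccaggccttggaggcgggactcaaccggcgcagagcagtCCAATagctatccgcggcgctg
Mcm6: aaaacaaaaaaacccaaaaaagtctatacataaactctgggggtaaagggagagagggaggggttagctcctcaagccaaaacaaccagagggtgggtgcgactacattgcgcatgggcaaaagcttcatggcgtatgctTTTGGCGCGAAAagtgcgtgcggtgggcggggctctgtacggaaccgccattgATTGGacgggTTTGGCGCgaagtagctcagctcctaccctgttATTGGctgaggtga

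Of the 3 genes that rose, Orc1 has 1 E2F match, GCGCGAAA, starting 27 bases before the start site, and CCAAT letters at 120 and 66 bases before it. The stretch of Rrm2 has CCAAT letters and none of the E2F letters searched, and that of Ccne1 has neither; this says only that these exact letters are not in these windows. In Mcm6 the matches TTTGGCGC and GCGCGAAA overlap, at 110 and 106 bases before the start, and a further TTTGGCGC stands at 47. In Mcm5 the matches TTTCGCGC and GCGCCAAA overlap likewise, at 153 and 149 bases before the start. The 14 genes with E2F letters in the 300-base window had a median log2 fold change of 0.45 (range 0.17 to 1.04), and the 25 without them 0.46 (range -0.14 to 0.87). The 2 sets of genes thus had nearly the same median and overlapping ranges. The split is by these exact letters in these windows alone. It does not sort the genes by whether E2F regulates them, and the part of E2F in the differences was not tested. The cell cycle homology region letters TTTGAA and TTCGAA, both strands, which are known from genes of late cell cycle phases, stood in 20% of the replication windows against 19.2% of all windows and in 13 of 17 windows (76.5%) of the mitosis genes described further on.

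Origin licensing genes numbered 10, and all 10 were above 0, with 1 called (Orc1), 5 at an unadjusted p under 0.05 and a median of 0.46. Without NM3 none was called, 5 had an unadjusted p under 0.05 and the median was 0.31; without the 4 libraries that stood apart these were 0, 4 and 0.29. For this and the other role groups, the shares of all genes tested are those given above for the same fits. In the main fit 0.541% were called higher and 4.79% were higher at an unadjusted p under 0.05. Without NM3 these shares were 0.645% and 5.79%. By level per kilobase of exon, the scale on which genes can be compared with each other, 5 MCM genes led the origin licensing group: Mcm3 at 49.6, Mcm7 at 34.9, Mcm6 at 29.9, Mcm4 at 29.6 and Mcm5 at 23.7 CPM per kb, followed by Cdt1 and Mcm2, both at 14.7 CPM per kb. Orc1 was the lowest of all 47 at 1.07 CPM per kb, so the gene with the largest fold change was also the least abundant. Mcm3, one of the subunits of the helicase ring, stood at 163, 193 and 77.4 CPM in NM1 to NM3, 215, 214 and 115 CPM in NF1 to NF3, 229 and 218.5 CPM in HM2 and HM3, and 244, 215 and 162 CPM in HF1 to HF3. NM3 and NF3 were the 2 lowest libraries and HF3 was below NM1, NM2, NF1 and NF2, so the oxygen groups overlapped and the log2 fold change of 0.41 ± 0.24 (SE) did not pass. Mcm7, another ring subunit, stood at 147, 154.5 and 87.6 CPM in NM1 to NM3, 145, 154 and 107 CPM in NF1 to NF3, 197 and 179.9 CPM in HM2 and HM3, and 188, 182 and 159.8 CPM in HF1 to HF3. Here all hyperoxia libraries were above all normoxia libraries, with a log2 fold change of 0.46 ± 0.19 (SE). Mcm4, the ring subunit with the smallest difference of the group, stood at 83.04, 119.7 and 51.1 CPM in NM1 to NM3, 118, 128 and 65.5 CPM in NF1 to NF3, 100.2 and 123 CPM in HM2 and HM3, and 133, 152 and 94.3 CPM in HF1 to HF3, a log2 fold change of 0.34 ± 0.24 (SE). HF2 and HF1 were the highest, and HM2, HM3 and HF3 lay among the normoxia libraries. The other 3 ring subunits, Mcm2, Mcm5 and Mcm6, had 0.46 ± 0.24, 0.46 ± 0.19 and 0.45 ± 0.25 (SE), so the 6 log2 fold changes differed among themselves by less than the SE of any one of them. The loaders differed more: Cdc6, the ATPase that brings the ring to the origin, was higher by 0.81 ± 0.24 with no overlap between the oxygen groups (4.799 to 16.3 CPM in normoxia and 19.2 to 23.8 CPM after hyperoxia), Orc6, the smallest origin recognition subunit, by 0.54 ± 0.16, and Cdt1, which escorts the ring, by 0.39 ± 0.20 (log2 fold changes with SE).

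Helicase activation genes numbered 10, and all 10 were above 0, with 1 called (Ccne1), 6 at an unadjusted p under 0.05 and a median of 0.48. These were 1, 6 and 0.39 without NM3 and 0, 4 and 0.35 without the 4 libraries. Within it the cyclin and kinase genes and Cdc45 had larger log2 fold changes than the 4 GINS genes, a difference that was not tested. Exon lengths differ too: 1.35 (Gins4) to 4.10 kb (Gins2) in the GINS genes and 2.66 (Ccne1) to 8.73 kb (Dbf4) in the others. The part of length in this contrast was not tested either. Cyclin E2 (Ccne2), which partners CDK2 as cyclin E1 does, had a log2 fold change of 0.60 ± 0.17, Cdc7, the kinase that phosphorylates the ring, one of 0.48 ± 0.17, Cdc45, a part of the active helicase, one of 0.58 ± 0.18, and Mcm10, which helps the helicase start, one of 0.47 ± 0.18 (SE). For Cdc45 and Cdc7 the oxygen groups did not overlap: Cdc45 ran from 9.96 to 19.99 CPM in normoxia and 21.8 to 27.3 CPM after hyperoxia, and Cdc7 from 4.65 to 7.25 CPM in normoxia and 8.27 to 10.4 CPM after hyperoxia. The 4 GINS subunits, which form 1 complex, ranged from 0.042 (Gins4) through 0.23 (Gins3) and 0.31 (Gins2) to 0.38 (Gins1) in log2 fold change. Gins4, the most abundant gene of the group at 27.6 CPM per kb, stood at 42.9, 34.9 and 42.9 CPM in NM1 to NM3, 25.1, 27.1 and 49.1 CPM in NF1 to NF3, 46.2 and 36.3 CPM in HM2 and HM3, and 31.4, 30.3 and 43.1 CPM in HF1 to HF3. Its highest library was NF3, a normoxia library, and no hyperoxia library stood above it; the log2 fold change of 0.042 ± 0.19 (SE) turned below 0 when NM2, NF1, NF2, HM2 or HF3 was left out, with a stricter filter on low counts (-0.0088) and under the scaling on genes of at least 10 CPM (-0.031). Gins1 stood at 20.01, 12.2 and 10.1 CPM in NM1 to NM3, 11.2, 8.97 and 11.9 CPM in NF1 to NF3, 20.3 and 16.5 CPM in HM2 and HM3, and 9.72, 14.2 and 17.7 CPM in HF1 to HF3. NM1 was nearly as high as HM2, the highest library, and HF1 lay among the normoxia values. Its log2 fold change was 0.38 ± 0.20 (SE), which did not pass.

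Polymerase and primase genes numbered 7, and all 7 were above 0, with none called, 4 at an unadjusted p under 0.05 and a median of 0.31. Those last values were 3 and 0.29 without NM3 and 4 and 0.34 without the 4 libraries, again with none called. Pole, the catalytic subunit of polymerase epsilon, which copies the leading strand, stood at 22.7, 40.8 and 20.7 CPM in NM1 to NM3, 51.1, 46.8 and 25.4 CPM in NF1 to NF3, 43.3 and 54.7 CPM in HM2 and HM3, and 63.1, 60 and 43.2 CPM in HF1 to HF3. NM1, NM3 and NF3 were the 3 lowest libraries, while NF1 and NF2 were above HM2 and HF3. Its log2 fold change of 0.62 ± 0.22 (SE) was the largest of the group. Pold1, the catalytic subunit of polymerase delta, which copies the lagging strand, stood at 36.4, 40.04 and 26.2 CPM in NM1 to NM3, 42.97, 37.9 and 33.6 CPM in NF1 to NF3, 50.2 and 36.5 CPM in HM2 and HM3, and 44.6, 37.1 and 32.2 CPM in HF1 to HF3, a log2 fold change of 0.17 ± 0.17 (SE). The groups overlapped throughout, and the difference was 0.34 ± 0.25 in males and -0.0073 ± 0.22 in females. Prim1, the catalytic primase subunit, stood at 30.6, 23.6 and 26.1 CPM in NM1 to NM3, 19.4, 20.3 and 23.1 CPM in NF1 to NF3, 32.9 and 28.7 CPM in HM2 and HM3, and 29.1, 24.6 and 30.3 CPM in HF1 to HF3, a log2 fold change of 0.31 ± 0.14 (SE). NM1 was above HM3, HF1, HF2 and HF3, and within females all hyperoxia libraries were above all normoxia libraries. Of the rest, Pola1, the catalytic subunit of polymerase alpha, had a log2 fold change of 0.51 ± 0.19, Prim2, the large primase subunit, 0.40 ± 0.14, Pole2, the second subunit of polymerase epsilon, 0.21 ± 0.19, and Pola2, the second subunit of polymerase alpha, 0.20 ± 0.16 (SE). Of these 4, Prim2 had no overlap between the oxygen groups (29 to 38.96 CPM in normoxia and 40.6 to 49.6 CPM after hyperoxia).

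The clamp, its loader, single-strand binding and lagging strand genes numbered 11, with 10 above 0, none called, 3 at an unadjusted p under 0.05 and the lowest median of the 6 role groups, 0.28. None was called without NM3 (3 at an unadjusted p under 0.05, median 0.22) or without the 4 libraries (2 and 0.20). Pcna, the clamp, was the most abundant of the 47 at 79.5 CPM per kb. It stood at 205, 180.5 and 155 CPM in NM1 to NM3, 163, 170.2 and 184 CPM in NF1 to NF3, 246 and 208 CPM in HM2 and HM3, and 185, 195 and 206 CPM in HF1 to HF3, a log2 fold change of 0.26 ± 0.16 (SE) that did not pass. NM1 was above HF1 and HF2, and HM2 was the highest library. Lig1, the ligase that joins Okazaki fragments, stood at 95.1, 106 and 45.6 CPM in NM1 to NM3, 109.5, 108 and 61.6 CPM in NF1 to NF3, 125 and 132 CPM in HM2 and HM3, and 152, 122 and 109.6 CPM in HF1 to HF3, with a log2 fold change of 0.55 ± 0.23 (SE) and no overlap between the oxygen groups, HF3 and NF1 being nearly equal. Fen1, the nuclease that trims those fragments, had a log2 fold change of 0.49 ± 0.19 (SE). The 5 replication factor C subunits, which open the clamp and close it around DNA, all had log2 fold changes above 0, of 0.23 (Rfc4), 0.24 (Rfc3), 0.25 (Rfc2), 0.41 (Rfc1) and 0.42 (Rfc5). The subunits of replication protein A, which coats single-stranded DNA, did not move as 1: Rpa1 had 0.29 ± 0.19, Rpa2 0.28 ± 0.14 and Rpa3 -0.14 ± 0.24 in log2 fold change (SE), and none passed. Rpa3, the smallest subunit, stood at 13.2, 8.79 and 15.4 CPM in NM1 to NM3, 8.21, 7.33 and 14.7 CPM in NF1 to NF3, 9.54 and 9.54 CPM in HM2 and HM3, and 7.26, 8.80 and 16.3 CPM in HF1 to HF3. HF3, NM3, NF3 and NM1 were its highest libraries, so its values followed neither the oxygen groups nor the order seen in the MCM genes. Without NF3 its log2 fold change was 0.045. Rpa3 also has the shortest exon length of the 47 genes, 1.14 kb. In HF3, NM3, NF3 and NM1 the levels of the 47 genes correlated negatively with exon length (r = -0.16, -0.46, -0.54 and -0.44, described further on). The part of length in the values of Rpa3 was not tested.

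Nucleotide supply genes numbered 5, all 5 were above 0 and all 5 had an unadjusted p under 0.05, with 1 called (Rrm2) and the highest median of the 6 role groups, 0.56. Without NM3, 1 was called, 4 had an unadjusted p under 0.05 and the median was 0.49; without the 4 libraries these were 0, 3 and 0.42. Rrm1, the catalytic subunit that pairs with Rrm2, had a log2 fold change of 0.64 ± 0.21 (SE) and ranged from 54.1 to 124 CPM in normoxia and 139 to 166 CPM after hyperoxia, with no overlap. Tk1, the thymidine kinase of S phase, had 0.56 ± 0.17, and Tyms, which makes thymidylate, 0.47 ± 0.17 in log2 fold change (SE). Dut, which removes dUTP and has the smallest difference of the 5, stood at 49.7, 33 and 31.3 CPM in NM1 to NM3, 31.8, 32.2 and 26.6 CPM in NF1 to NF3, 54.8 and 44.9 CPM in HM2 and HM3, and 36.7, 37.6 and 44.3 CPM in HF1 to HF3, a log2 fold change of 0.39 ± 0.16 (SE). NM1 stood well above the other normoxia libraries and above all hyperoxia libraries except HM2.

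Genes that act on chromatin at the fork numbered 4, all 4 above 0, with none called, 2 at an unadjusted p under 0.05 and a median of 0.47. None was called without NM3 (2 at an unadjusted p under 0.05, median 0.36) or without the 4 libraries (1 and 0.28). Uhrf1, which reads half-methylated DNA and brings the maintenance methyltransferase, stood at 72.6, 99.1 and 35.2 CPM in NM1 to NM3, 96.98, 105 and 50.4 CPM in NF1 to NF3, 116 and 109 CPM in HM2 and HM3, and 133, 142 and 95.8 CPM in HF1 to HF3, a log2 fold change of 0.63 ± 0.25 (SE). HF2, HF1 and HM2 were the highest, and HF3 lay below NM2, NF1 and NF2. Slbp, which binds the stem-loop of histone mRNAs, stood at 64.3, 69.2 and 40.3 CPM in NM1 to NM3, 62.1, 65.2 and 44.96 CPM in NF1 to NF3, 63.8 and 60.4 CPM in HM2 and HM3, and 65.9, 70.8 and 57.4 CPM in HF1 to HF3, a log2 fold change of 0.14 ± 0.18 (SE), and apart from low values in NM3 and NF3 its groups overlapped. Without NM3 the value for Slbp was 0.026, and without the 4 libraries that stood apart it was -0.025. Chaf1a and Chaf1b, subunits of the complex that deposits new histones, had log2 fold changes of 0.45 ± 0.22 and 0.48 ± 0.16 (SE).

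Library by library, most of the 47 genes lay above the mean of the normoxia libraries after hyperoxia, 42 (HF1) to 46 (HM2, HM3 and HF3) of 47, while in normoxia the number ran from 8 (NM3) and 10 (NF3) through 28 (NF2) and 31 (NF1) to 39 (NM1). The median log2 deviation of the 47 genes from the normoxia mean was 0.21 in NM1 and NM2 and -0.40 in NM3. It was 0.15, 0.11 and -0.22 in NF1 to NF3, against 0.58 and 0.46 in HM2 and HM3 and 0.36, 0.48 and 0.41 in HF1 to HF3. All 5 hyperoxia libraries were above all 6 normoxia libraries, the closest being HF1 and NM2. NM3 was the lowest normoxia library for 28 of the 47 genes, NF3 for 7, and HM2 was the highest of all libraries for 23. Summed over the genes, the level ran from 1486 CPM (NM3) to 2537 CPM (NF2) in normoxia and from 2679 CPM (HF3) to 3102 CPM (HM2) after hyperoxia.

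Part of this spread was shared with other genes. The genes of at least 10 CPM deviated by -0.36 in NM3 and -0.15 in NF3, and by 0.19 in HF1, where replication genes deviated by 0.36. Taken as the difference from those genes, the replication genes stood at -0.080 to 0.20 in the normoxia libraries and at 0.17 (HF1) to 0.56 (HM2) in the hyperoxia libraries. NM3 no longer stood apart on that scale (-0.034), and HF1 then fell below NM1. Exon length moved with the libraries too: across the 47 genes the deviation correlated with exon length at r = -0.54 in NF3, -0.46 in NM3 and -0.44 in NM1, and at 0.53, 0.58 and 0.56 in NF1, NF2 and HF1, with the other 5 libraries in between. With the log2 fold change itself, exon length (1.14 to 11.2 kb) correlated at r = 0.30 and rho = 0.24 over the 47 genes, which share the same libraries. The part of length in the differences was not tested.

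**Figure D3:**
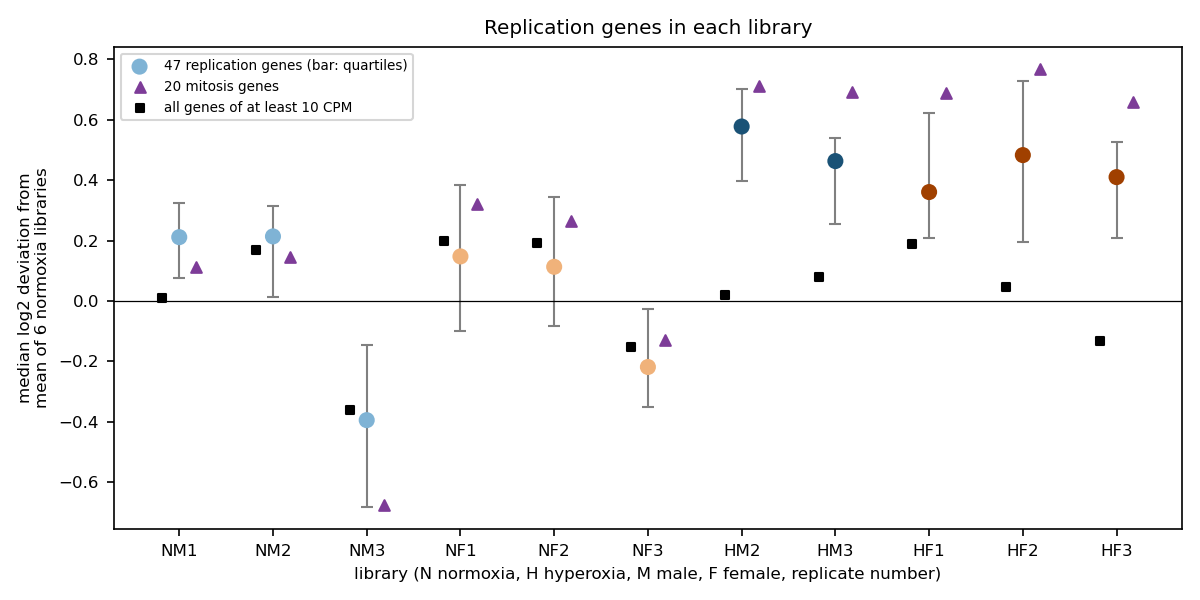
Median log2 deviation from the mean of the 6 normoxia libraries (y axis) in each library (x axis) for the 47 replication genes (circles, bars the quartiles over genes), 20 mitosis genes (triangles) and all genes of at least 10 CPM (squares). The 5 hyperoxia libraries (0.36 to 0.58) lie above the 6 normoxia libraries for the replication genes, and NM3 (-0.40) and NF3 (-0.22) are the lowest for the circles.

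Taken separately, neither sex had a replication gene past the edgeR test. In males 0 of 47 passed (0.0401% of all genes tested did), 14 had an unadjusted p under 0.05 (5.5% of all genes) and DESeq2 called 2, Dbf4 and Rrm2 (0.456% of all genes). In females 0 of 47 passed edgeR (0.0401%), 12 had an unadjusted p under 0.05 (4.53%) and DESeq2 called 2, Ccne1 and Orc1 (0.481%). The medians were 0.49 in males, with 46 of 47 above 0, and 0.39 in females, also with 46 of 47 above 0; the exceptions were Rpa3 in males and Pold1 in females. All genes tested had medians of -0.052 and -0.0046 in these contrasts. The counts at an unadjusted p under 0.05 depended on single libraries. Without NM3 they were 5 in males (5.55% of all genes) and 18 in females (6.49%), so that the sex with more such genes changed, and the medians were 0.33 and 0.37. The male count was also 23 without NM2, where the share of all genes was 10.5%. The female count was 8 without NF1 (3.83% of all genes), NF2 (3.68%), HF2 (2.55%) or HF3 (3.65%). With scaling on genes of at least 10 CPM the counts were 20 in males (6.26%) and 27 in females (5.73%). Without the 4 libraries that stood apart the median log2 fold changes were 0.32 in males and 0.30 in females.

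The difference between the sexes in the response was tested directly as an interaction, the female minus the male response. None of the 47 passed in edgeR (0% of all genes did), none had an unadjusted p under 0.05 (1.67% of all genes) and none passed in DESeq2 (0.015%). The estimates ranged from -0.54 ± 0.41 (Cdt1) to 0.48 ± 0.47 (Rpa3), as log2 differences with SE. The median was -0.11, with 30 of 47 larger in males, but without NM3 the median was 0.089 and 33 of 47 were larger in females. Scaling on genes of at least 10 CPM also gave a median above 0 (0.042), and under that scaling the median interaction of all genes tested moved from 0.013 to 0.17 and that of the male response from -0.052 to -0.18.

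Female and male libraries, averaged over oxygen, did not differ past the test for any of the 47 in edgeR (0.0251% of all genes did) or DESeq2 (0.175%). Rfc3 was the 1 gene with an unadjusted p under 0.05 (3.27% of all genes), with a log2 difference, female minus male, of -0.38 ± 0.16 (SE). The median was -0.017, with 21 of 47 higher in females. The differences ranged from -0.40 (Gins1) to 0.36 (Pole).

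**Figure D4:**
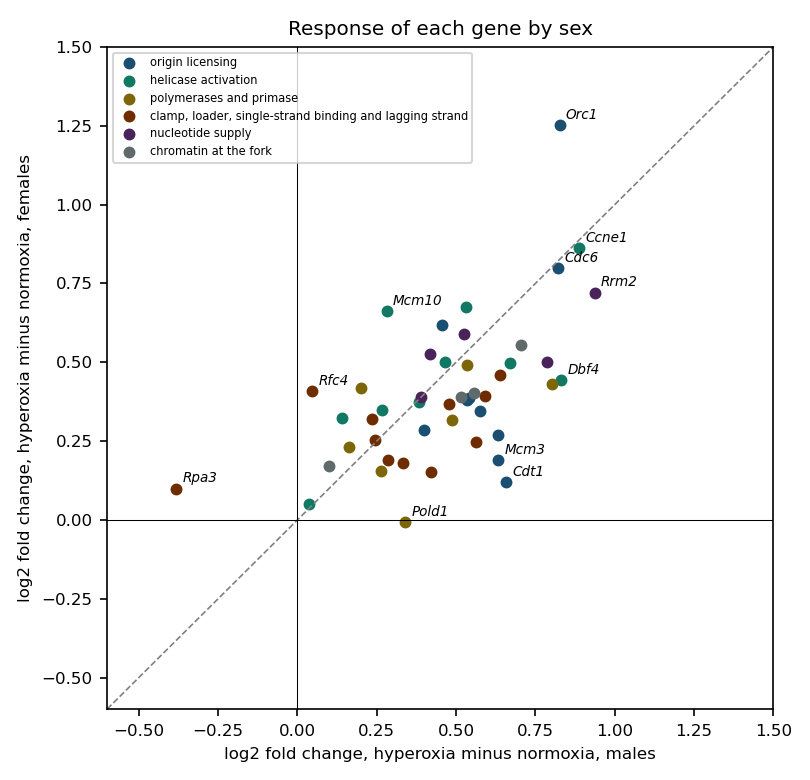
Log2 fold change (hyperoxia minus normoxia) of each of the 47 genes in males (x axis) and females (y axis), coloured by role; the dashed line marks equal values. Of the 47, 45 lie above 0 in both sexes and 30 lie on the male side of the line, with Orc1 (0.83 and 1.25) far above it and Rpa3 (-0.38 in males) apart on the left.

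The rest of the replication pathway was described from a list of 61 further genes, of which 60 were tested; Chtf8 has more than 1 identifier and was not used. None passed the edgeR test, where 0.541% of all genes tested rose. At an unadjusted p under 0.05, 26 were higher and none lower, against 4.79% of all genes tested that were higher. Above 0 were 51 of 60, with a median of 0.30. DESeq2 called 11 higher (1.47% of all genes tested) and scaling on genes of at least 10 CPM 9 (0.957%). Without NM3 none of the 60 was called (0.645% of all genes tested rose) and 21 were higher at an unadjusted p under 0.05 (5.79%). In that fit 45 were above 0 and the median was 0.23. Without the 4 libraries that stood apart 45 were again above 0 and the median was 0.23. Genes that fire origins and protect forks (9 genes, median 0.52) included Ticrr, which recruits helicase components, at 0.81 ± 0.19, and Clspn, the checkpoint adaptor claspin, at 0.76 ± 0.21, as log2 fold changes with SE. The licensing genes outside the 47 (8 genes, median 0.14) included Gmnn, geminin, the inhibitor of CDT1, at 0.40 ± 0.15, and the helicase gene Mcm8 at 0.40 ± 0.19. Accessory polymerase and lagging strand genes (10 genes, median 0.071) had none at an unadjusted p under 0.05, and their smallest p belonged to Pole3, an accessory subunit of polymerase epsilon, at 0.32 ± 0.16, and Pold4, the small subunit of polymerase delta, at -0.34 ± 0.18. Alternative clamp loaders and unloader (3 tested, median 0.46) included Atad5, which takes PCNA off DNA, at 0.61 ± 0.21, and Dscc1, a subunit of an alternative clamp loader, at 0.45 ± 0.15.

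Other nucleotide genes (9 genes, median 0.091) included Shmt1, which supplies one-carbon units for thymidylate synthesis, at 0.39 ± 0.16. Fork chromatin genes outside the 47 (7 genes, median 0.43) included Pclaf, a PCNA-binding factor, at 0.67 ± 0.17, and the histone chaperone Asf1b at 0.64 ± 0.18. The E2F and CDK2 control genes (14 genes, median 0.33) included E2f2 at 0.59 ± 0.17 and Fbxo5, which holds back the anaphase-promoting complex, at 0.64 ± 0.18. For Ticrr the libraries ran from 9.91 to 25.1 CPM in normoxia and 25.3 to 33.8 CPM after hyperoxia. Its oxygen groups did not overlap, yet it did not pass the test.

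Genes of mitosis and the D cyclins were set beside the replication genes because they mark other phases of the cycle. All 20 mitosis genes were above 0 with a median of 0.69, 19 had an unadjusted p under 0.05, and the kinases Aurka (0.75 ± 0.15; edgeR, adjusted p = 0.0315) and Bub1 (0.74 ± 0.16; adjusted p = 0.0403) rose, 2 of 20 against 0.541% of all genes tested. The count called was 16 with DESeq2 (1.47% of all genes), 13 with scaling on genes of at least 10 CPM (0.957%), 5 without NM3 (0.645%) and 0 without the 4 libraries that stood apart (0.0543%), with 19 at an unadjusted p under 0.05 in each of these fits. Neither Aurka nor Bub1 passed without NF1, NF2, HM2, HM3, HF1, HF2 or HF3, each left out alone. Their library medians were -0.67 in NM3, -0.13 to 0.32 in the other normoxia libraries and 0.66 to 0.77 after hyperoxia, so NM3 was lowest there too. Without NM3 the median was 0.57 for the mitosis genes and 0.32 for the replication genes. Ccnd1, the cyclin D1 of G1, rose, with a log2 fold change of 1.74 ± 0.22 (SE; edgeR, adjusted p = 0.00134) and means of 5.69 ± 1.24 CPM (SD, n = 6) in normoxia and 19.3 ± 7.43 CPM (SD, n = 5) after hyperoxia. Without the 4 libraries its log2 fold change was 1.32 (edgeR, adjusted p = 0.0513). Ccnd3, cyclin D3, had 0.28 ± 0.20, and of the 5 D cyclin and partner kinase genes 3 were above 0. No test of 1 list against another was made, so these medians describe the lists side by side.

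**Figure D5:**
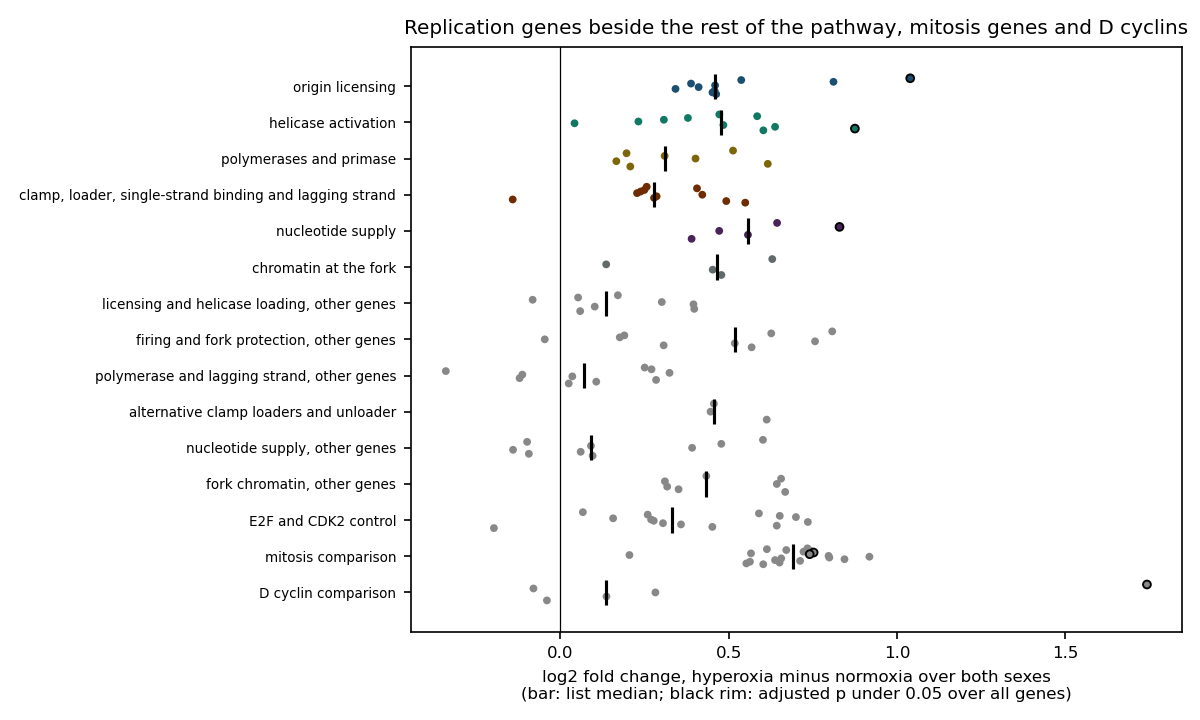
Log2 fold change (x axis, hyperoxia minus normoxia over both sexes) of the 47 replication genes by role group (coloured), of 60 other replication pathway genes in 7 lists and of the mitosis and D cyclin lists (grey); vertical bars are list medians and black rims an adjusted p under 0.05 over all genes. The role group medians run from 0.28 to 0.56, those of the other pathway lists from 0.071 to 0.52, and the mitosis median is 0.69.

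Markers of other cell types were also compared between the oxygen groups. All 8 monocyte markers were above 0 with a median of 0.73. None was called, and 3 were higher at an unadjusted p under 0.05, against 4.79% of all genes tested. Their sum was 27.2 to 68.0 CPM in normoxia and 55.5 to 144 CPM after hyperoxia. HF2 was the highest, and the other 4 hyperoxia libraries had 55.5 to 74.5 CPM. Of the 7 interstitial macrophage markers 6 were tested, all above 0 with a median of 1.09. None was called, and 4 were higher at an unadjusted p under 0.05. Their sums were 15.4 to 33.2 CPM in normoxia and 20.4 to 96.0 CPM after hyperoxia. HF2 was again the highest, and the other 4 had 20.4 to 45.5 CPM. Neutrophil markers (8) summed to 26.95 to 55.2 CPM and 24.0 to 28.6 CPM, with Ly6g at 0 in every library. Erythroid markers (6) summed to 101 to 1200 CPM in normoxia, highest in NM1, and to 52.2 to 302 CPM after hyperoxia, and all 6 were below 0. All 8 endothelial markers were below 0 (median -0.66, none called), with sums of 115 to 191 CPM in normoxia and 99.0 to 149 CPM after hyperoxia. Of the 8 mesenchyme markers 6 were below 0 (median -0.29, none called; 35.1 to 88.8 and 23.5 to 69.5 CPM), and of the 10 epithelial markers 6 were above 0 (median 0.40, none called; 46.1 to 93.9 and 69.4 to 147 CPM). Dendritic cell markers (6) summed to 4.25 to 10.7 and 4.34 to 14.5 CPM, and B, T and NK cell markers (8) to 2.49 to 7.02 and 3.55 to 7.21 CPM, with none called. The 16 alveolar macrophage markers themselves summed to 6249 to 9617 CPM in normoxia and 6124 to 8259 CPM after hyperoxia. Of the 16, 14 were below 0, with a median of -0.56. At an unadjusted p under 0.05 there were 8, none of them higher, where 8.13% of all genes tested passed in either direction. Called lower at an adjusted p under 0.05 were 6 of 16, against 33 of all 19948 genes tested. The part of these cells in the replication genes' differences was not tested.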

How the data were processed

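The deposited table holds whole-number read counts per Ensembl gene and library, not normalized, made by the authors. Per the labels' protocols, libraries came from a low-input full-length cDNA kit, with 8-base molecular identifiers trimmed, and fragments under 250 bp were removed from libraries that the labels do not clearly name before resequencing. The submitters' processing notes list Salmon 1.10.1, STAR 2.7.9, Trim Galore 0.6.7, DESeq2 1.42 and R 4.3.2, and the build mm39; how identifiers and strand were used in counting is not given in the sources used here, so reads of overlapping or near-identical genes could be split between them.

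These counts were tested here with edgeR 4.0.16 in R 4.3.3 (expression filter over the 4 groups with a count of 10 and a total of 15, TMM, robust quasi-likelihood fit, 1 mean per group), with Benjamini-Hochberg adjustment over all 19948 genes. SEs were derived from the F statistic. DESeq2 1.42.0 was an alternative. Deviations are log2 of CPM plus 0.5. The procedure was tested on simulated data. Exon lengths came from GENCODE M21 and promoters from RefSeq (GRCm38.p6). No pair of libraries of 1 group agreed within sampling noise (chi-square per gene at least 20.9). All 47 members may be named. Values by library are given for members past the test, for the 2 highest per kb and for the smallest and largest fold change of each role group. Of other lists, genes past the test and the 2 of smallest p are named, except 1 gene that is not reported here. The members and lists were chosen with earlier results of these data known.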

Additional observations from a re-analysis of the deposited data

How the results depend on the processing

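The median log2 fold change of the 47 genes over both sexes stayed between 0.30 and 0.53 under every alternative run, against 0.45. The library medians of the 47 genes had an SD of 0.22 within groups, which is a spread of single libraries and not the error of that fold change. With 1 library left out the median log2 fold change was 0.32 to 0.53 over both sexes, 0.33 to 0.61 in males and 0.31 to 0.44 in females. The range was -0.23 to 0.09 for the interaction and -0.10 to 0.05 for female minus male. The count of genes that rose (3) depended more on the setting. It was 5 with DESeq2, 5 with a stricter filter on low counts (where 1.74% of the 12935 genes tested rose), 8 with scaling on genes of at least 10 CPM and 0 without the 4 libraries that stood apart. With 1 library left out it was 1 (Ccne1) without NF1, NF2, HF1, HF2 or HF3, where 0.196% to 0.47% of all genes tested rose. It was 2 to 4 without NM1, NM2, NM3 or NF3, where 0.534% to 0.761% of all genes tested rose. The fits without HM2 or HM3 keep 1 hyperoxia male library each and are left out of these counts. In males and in females it was 0 under each alternative except DESeq2, which called 2 in each sex. Ccne1 passed in all alternatives but 3 (without HM2, without HM3 and without the 4 libraries).

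The replicate numbers pair no libraries by the labels, and same-numbered libraries did not all deviate together (r = -0.17 between NM2 and HF2, 0.57 between NM3 and NF3). A fit with the replicate number as a block called 8 genes (Ccne1, Cdc45, Cdc6, Dbf4, Orc1, Rrm1, Rrm2 and Uhrf1), where 1.05% of all genes tested rose, and 0 in either sex alone.

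Directions turned for 4 genes near 0. Gins4 (0.042) was -0.0088 with the stricter filter and -0.054 to 0.23 with 1 library left out, below 0 without NM2, NF1, NF2, HM2 or HF3, and it was -0.031 with scaling on genes of at least 10 CPM. Rpa3 (-0.14) was -0.36 to 0.045 with 1 library left out, above 0 without NF3. Without the 4 libraries Pole2 was -0.0044 and Slbp -0.025. The cause of these changes was not tested. Depth did not limit detection, the lowest count of a replication gene being 34, while 2 or 3 libraries a group limit the precision. Intervals other than the SEs were not made, and p-values cover only these libraries.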
